A study of Mus musculus with 3 samples.

Results

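Cytosolic ribosomal protein genes were followed through the 3 expression arrays of this study, which asked what Oncostatin M (OSM), a cytokine of the IL-6 family, does to muscle stem cells. Members were genes whose symbol in the platform annotation is Rpl or Rps with a number and a permitted suffix, or is Rpsa or Rplp0 to Rplp2. A member also needed a probe set that names no other gene, and the probe set of highest mean signal gave its value. This left 47 members of 18193 genes, namely 22 proteins of the large subunit, 20 of the small subunit and 5 paralogues (Rpl3l, Rpl7l1, Rpl22l1, Rpl39l and Rps27l). All 47 are protein-coding in RefSeq, which lists 83 such genes. A further 28 symbols of this kind were named only on probe sets shared with other genes, among them Rpl3, Rpl5, Rpl10, Rplp1 and Rps12.

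The cells were muscle stem cells (MuSC), sorted by flow cytometry as CD34+ and α7 integrin+ from muscle of wildtype C57BL/6 mice at an age of 8 weeks. Fresh MuSC went straight to RNA isolation, MuSC -OSM were kept for 3 days in medium with 10% fetal bovine serum, and MuSC +OSM had the same medium and time with 100 ng/mL OSM. The files used here hold 1 Affymetrix MOE_430_2 array for each condition, made from 20 ng of total RNA, although the study's own legend speaks of biological replicates for its OSM values. No comparison here therefore has replicate error or a test, and every ratio is a description of those arrays. MuSC +OSM over MuSC -OSM addresses the cytokine, and MuSC -OSM over fresh MuSC addresses culture. All 3 comparisons share arrays, so their ratios are not independent of one another.

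The values were MAS5 signals, a brightness per probe set, scaled so that each array's trimmed mean was 198 or 199. Signals under 40, the median of all signals, were raised to 40 before a log2 ratio was taken, and a gene counted as measured when at least 1 array of the comparison exceeded that floor. Where 3 values follow one another without further label, they are those of fresh MuSC, MuSC -OSM and MuSC +OSM, in that order. The fresh MuSC array had 56.8% of probe sets above the floor, against 47.3% for MuSC -OSM and 45.9% for MuSC +OSM. The highest signal on an array was 39631, 25588 and 18071, while the level exceeded by the top 1% of probe sets was 5170, 6200 and 5410. The single highest signal was thus lower on the cultured arrays, but that level was not. Of 9 MuSC markers, 9 were above the floor in fresh MuSC and 7 on each cultured array. Pax7, the transcription factor that defines these cells, had signals of 4006, 282 and 431. Myf5, Cdh15, Vcam1, Cd34 and Calcr were also lower on both cultured arrays. The other markers were higher there, with Myod1 at 936, 3820 and 4148, Itga7 at 499, 1808 and 1238, and Des at 744, 6183 and 7248. The 2 fibroblast markers with a probe set summed to 5234 in fresh MuSC against 93 and 142 after culture. Dpt gave 5094 of that sum. Smooth muscle and pericyte markers summed to 1988, 37 and 60, endothelial markers to 331, 38 and 54, and leukocyte markers to 191, 141 and 86, while myofibre genes summed to 4464, 25113 and 16098. In fresh MuSC, Rgs5 gave 1687 of the smooth muscle sum and Cdh5 268 of the endothelial one, with Pecam1 under the floor on all arrays. Acta1 gave 4243, 23868 and 15326 of the myofibre sums, beside Ckm at 128, 1102 and 648 and Myh4 at 93, 143 and 124. Neither Schwann cell marker had a probe set of its own. The signal of the 3′ beta-actin probe set over the 5′ one was 2.35 for the fresh cells, 1.40 without OSM and 1.41 with it, and for Gapdh it was 1.36, 1.14 and 0.905.

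A ribosome is built from ribosomal RNA and many ribosomal proteins, divided between a small subunit that reads the mRNA and a large subunit that joins amino acids. Cells make these proteins in matched amounts, and their mRNAs are among the most abundant in almost every cell type. Most of these mRNAs begin with a run of pyrimidines, the terminal oligopyrimidine (TOP) tract, through which Larp1 and the mTOR kinase adjust their translation and stability with nutrients and growth factors. Quiescent stem cells are known for low protein synthesis, which an array of mRNA levels does not measure.

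The start of the transcript is the sequence feature that members are known to share and that their selection did not use. RefSeq promoter sequences (GRCm38.p6) were available for 42 of the 47 members, and the 30 bases from 15 before to 15 after each annotated start were searched for a C followed by at least 4 bases that are each C or T, on the transcribed strand only. Such a tract occurred in 29 of 42 members (69.0%) and in 40.3% of all 27025 genes in the table. A tract of at least 8 bases occurred in 19 members (45.2%) and in 10.8% of all genes. A C at the annotated start itself with at least 4 such bases after it, whether or not the run had begun upstream, occurred in 8 members (19%) and in 3.01% of all genes. The windows shown here are those of a long tract in each subunit, of the 2 paralogues with the largest ratios and of Rplp0, where no tract was found. The base after the middle of each window is the annotated start, and capitals mark the longest tract. Rps27l has another annotated start, not shown, whose window held no tract, and the tract shown for Rps27l ends before the annotated start.
Rpl7a (chr2:26910792-26910821, plus strand): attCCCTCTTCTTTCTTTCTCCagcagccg
Rpl35 (chr2:39005117-39005146, minus strand): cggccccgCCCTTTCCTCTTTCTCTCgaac
Rps6 (chr4:86857353-86857382, minus strand): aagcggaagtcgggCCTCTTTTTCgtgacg
Rpl22l1 (chr3:28805493-28805522, plus strand): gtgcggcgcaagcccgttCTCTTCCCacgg
Rps27l (chr9:66946071-66946100, plus strand): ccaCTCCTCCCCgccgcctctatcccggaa
Rplp0 (chr5:115559452-115559481, plus strand): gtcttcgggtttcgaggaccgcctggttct
A window without a match says only that these letters are not there, and the annotated start can lie some bases from the true one.

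Ribosomal protein genes sat at the top of the signal range on every array. Of the 47 members, 44 were above the floor on all 3 arrays, and 33, paralogues apart, had a mean signal of at least 8000, a level chosen after the signals were seen. In fresh MuSC these 33 ranged from 9335 to 33164 with a median of 20507. In MuSC -OSM they ranged from 7912 to 24429 with a median of 15479, and in MuSC +OSM from 6875 to 18071 with a median of 11323. Members filled 27, 18 and 21 of the 50 brightest gene positions. The 103 probe sets that belong to members alone carried 7.24% of all signal for the fresh cells, 5.55% without OSM and 4.73% with it. Together with the 110 probe sets that ribosomal protein genes share with other genes, the share was 17.1%, 12.4% and 10.5%. A share of the summed signal is the same whichever constant an array is multiplied by.

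**Figure D1:**
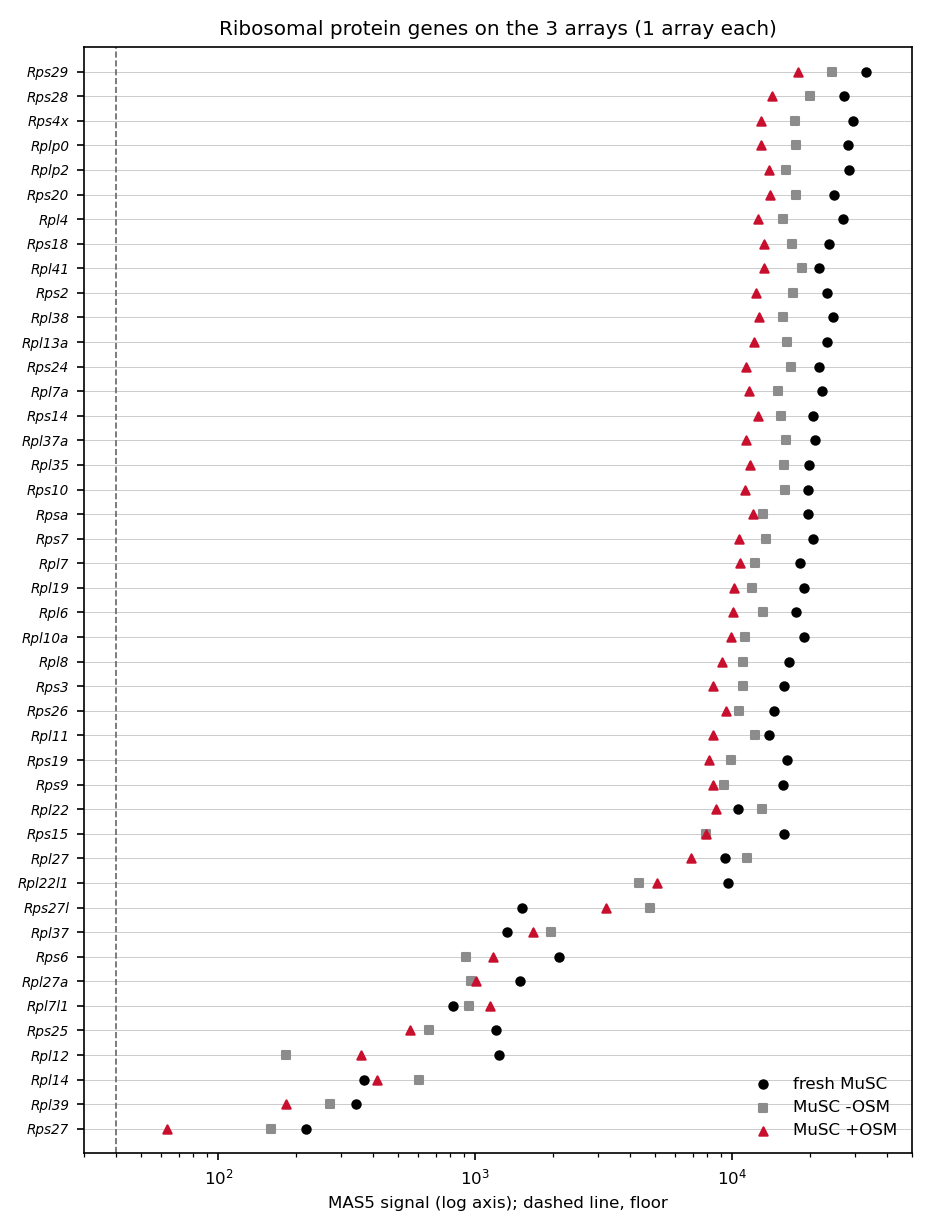
MAS5 signal (log axis) of the 44 members above the floor, 1 row per gene in order of mean signal, with 1 point for each of the 3 arrays. The 33 bright members run nearly in parallel in the deposited signals, from fresh MuSC at the right to MuSC +OSM at the left in 30 of 33, and the dim members at the bottom follow no common order. After quantile normalization, not drawn, 2 of the 33 keep that order, which was not counted over all genes.

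In the deposited signals most ribosomal protein genes had their highest value in fresh MuSC and their lowest in MuSC +OSM. This order held in 33 of the 41 measured members that are not paralogues, against 13 after centring each array on its median and 5 after quantile normalization. Fresh MuSC was highest in 37 of 41 as deposited, 17 after centring and 18 after quantile normalization, and MuSC +OSM was lowest in 35, 28 and 7. The order of the arrays thus depended on the scale. In these whole-population RNA samples, fewer cells of a type and less RNA per cell cannot be told apart.

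For OSM, the members' signals were slightly lower with the cytokine as deposited. Of 44 measured members, 38 had a lower signal with OSM than without it and 6 a higher one, where 50.2% of all 11271 genes measured were lower. The median log2 ratio was -0.35, a signal 1.28-fold lower, and the median of all genes was -0.01. No member was at least 2-fold higher, against 6.07% of all genes, and 1, Rps27, was at least 2-fold lower, against 4.39%. The subunits had similar medians, -0.39 for the large subunit (20 of 22 lower) and -0.34 for the small subunit (17 of 19 lower). This direction depended on the scale, since the members' median was -0.18 with 35 of 44 lower after median-centring and 0.06 with 15 of 44 lower after quantile normalization. Median-centring moved the median of all genes by over 0.1 in all 3 comparisons, to 0.15 for MuSC +OSM over MuSC -OSM, 0.37 for MuSC -OSM over fresh MuSC and 0.58 for MuSC +OSM over fresh MuSC.

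The ratio of other bright genes in this comparison depended on how they were chosen. The 77 genes that are not members and have a mean signal of at least 8000 over the 3 arrays had a median of -0.43 as deposited (65 of 77 lower), against -0.38 for the 33 bright members (32 of 33 lower). Among these 77 were Rps3a1 and Fau, which encode ribosomal proteins, and TOP mRNAs such as Eef1a1 and Tpt1. The 27 other genes at 8000 or more on each of the 3 arrays had a median of -0.39. Other genes at 8000 or more in fresh MuSC, an array that takes no part in this comparison, numbered 107 and had a median of -0.01, with 55 lower and 51 higher. The members' median was -0.38 under each of these choices. Against the median of all genes, the bright members stood at -0.37 as deposited and at 0.09 after quantile normalization, so their place among all genes changed sign with the scale. Quantile normalization gives every array the same set of values. It therefore largely removes a shift shared by the brightest probe sets, and cannot decide whether such a shift was present. The SD of the ratio was 0.16 across the bright members and 0.94 across the 77 other bright genes.

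**Figure D2:**
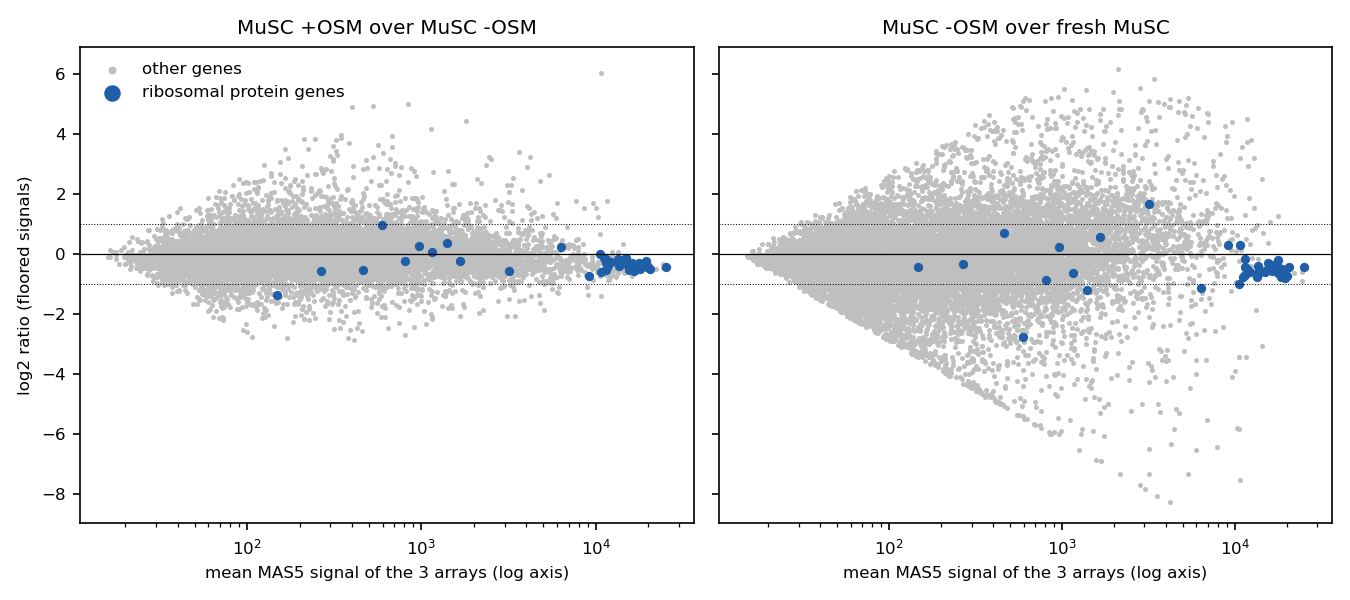
Log2 ratio of floored signals against the mean signal of the 3 arrays (log axis), 1 point per measured gene, with dotted lines at a 2-fold difference. In the deposited signals the bright members form a tight group at the right, at a median of -0.38 for MuSC +OSM over MuSC -OSM (0.07 after quantile normalization) and -0.51 for MuSC -OSM over fresh MuSC (0.05 after median-centring).

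For culture without OSM, the members' deposited signals were lower than in fresh MuSC, a direction that median-centring turned. As deposited, 38 of 44 measured members were lower after culture without OSM, where 56.2% of all 12755 genes were lower. The median log2 ratio was -0.50, a signal 1.42-fold lower, and that of all genes was -0.14. At least 2-fold lower were 4 members, Rpl12, Rps6, Rpl22l1 and Rps15, against 20.4% of all genes, and 1, Rps27l, was at least 2-fold higher, against 15.0%. The median was -0.54 in the large subunit (18 of 22 lower) and -0.49 in the small subunit (19 of 19 lower). After median-centring the members' median became 0.06 with 19 of 44 lower, and after quantile normalization -0.12 with 26 of 44 lower. The sign of the members' own median against fresh MuSC therefore could not be told from the scale of the arrays. All genes had medians of 0.37 and 0.1 on those scales. Against the median of all genes, the bright members stood at -0.37 as deposited, -0.32 after median-centring and -0.16 after quantile normalization. They thus lay below that median on each scale.

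Whether the members lay below or above other bright genes on culture depended on the arrays that chose those genes. Of the 77 chosen by the mean over 3 arrays, 2 of them cultured, 46 were higher and 31 lower in MuSC -OSM, with a median of 0.46 against -0.51 for the bright members. The 107 chosen on the fresh MuSC array had a median of -1.53, with 91 lower, and the 126 chosen on the MuSC -OSM array had 1.31, with 109 higher. The members' median of -0.51 or -0.50 lay between those. For the 27 at 8000 or more on each array the median was 0.12, and the members' median minus this one was -0.63 as deposited and -0.38 after quantile normalization. Lgals1, which encodes the lectin galectin-1, had signals of 10672, 25588 and 17414, and Acta1, skeletal muscle actin, had 4243, 23868 and 15326. Egr1, an immediate early transcription factor, had 33947, 4005 and 5036. The SD of the culture ratio was 2.39 across the 77 genes and 0.27 across the bright members.

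**Figure D3:**
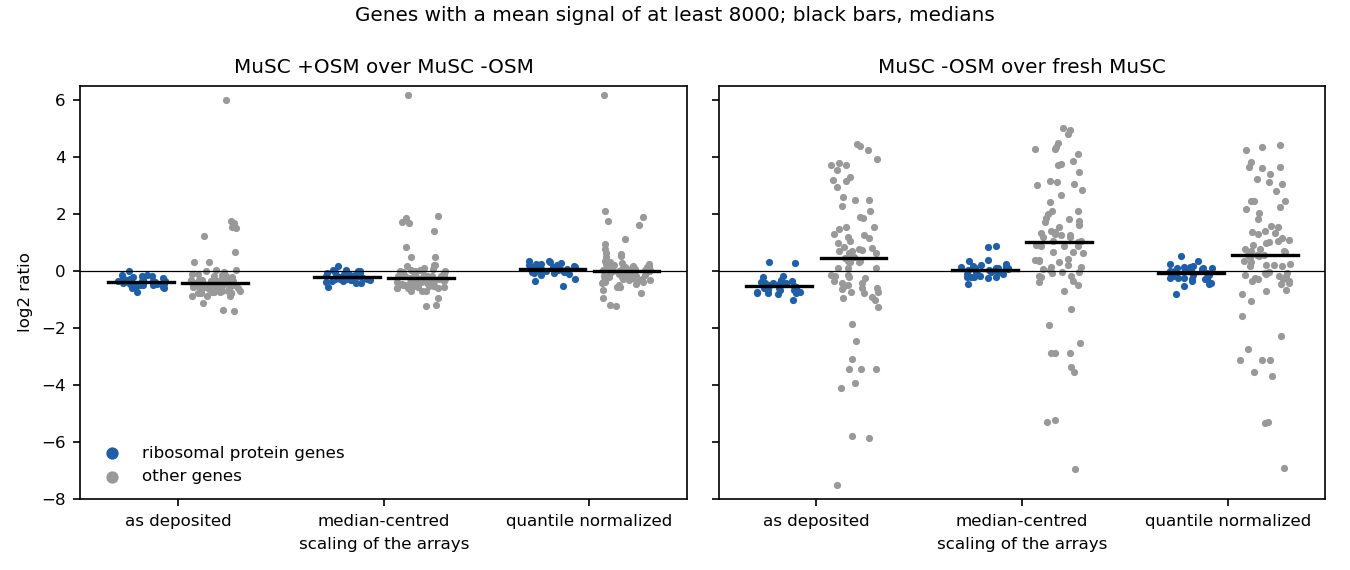
Log2 ratios of the 33 bright members and the 77 other genes with a mean signal over 3 arrays of at least 8000, 1 point per gene with black bars at the medians, for the deposited signals and the 2 other scales. The members' median crosses 0 between scales (-0.38, -0.21 and 0.07 at left, -0.51, 0.05 and -0.06 at right), and at right it lies below that of the other genes drawn, while 107 genes chosen on the fresh MuSC array alone, not drawn, have a deposited median of -1.53.

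The comparison of MuSC +OSM with fresh MuSC added both steps. As deposited, 40 of 44 measured members were lower in MuSC +OSM, where 56.3% of all 12483 genes were lower. The median log2 ratio was -0.90, a signal 1.86-fold lower, against -0.14 for all genes. At least 2-fold lower were 9 members, against 17.2% of all genes, and 1, Rps27l, was at least 2-fold higher, against 13.8%. The median became -0.17 with 32 of 44 lower after median-centring and 0.00 with 21 of 44 lower after quantile normalization. Against the median of all genes, the bright members stood at -0.76 as deposited and after median-centring, and at -0.05 after quantile normalization. The bright members' median minus that of other bright genes was -0.92 for the 77 chosen by the mean and 0.56 for the 107 chosen on the fresh MuSC array.

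Among proteins of the small subunit, Rps29 was the brightest member, with signals of 33164 before culture, 24429 without OSM and 18071 with OSM. Its signal in MuSC +OSM was the highest of any probe set on that array. Rps28, another protein of the small subunit, had 27096, 20127 and 14300. Rps4x, an X-linked gene of the small subunit, had 29413, 17540 and 12942, so that the deposited signal after culture with OSM was 2.27-fold lower. Rps19, mutated in Diamond-Blackfan anaemia, had 16269, 9877 and 8087. Rps24, mutated in the same anaemia, had 21737, 16875 and 11323. Each of these 5 genes stepped down from fresh MuSC to MuSC -OSM and again to MuSC +OSM in the deposited signals, by 1.22-fold to 1.49-fold at the OSM step, on the brightest probe set of each. A dim Rps24 probe set of its own had 733, 279 and 507, with an OSM log2 ratio of 0.86. Rpsa, also known as the laminin receptor, had 19614, 13213 and 12070, and its OSM step of 1.09-fold was among the smallest. Rps15 had 15950 in fresh MuSC and the nearly equal values 7912 and 7931 after culture. A second Rps15 probe set read 12125, 10095 and 6957, so its probe sets placed the drop at different steps.

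Rps6, the small-subunit protein that S6 kinases phosphorylate downstream of mTOR, was dim on its own probe set, with 2113, 918 and 1173. The brightest probe set that it shares with other gene names read 27525, 16646 and 12123. These probe sets differ in direction for OSM, with a log2 ratio of 0.35 on the dim one and -0.46 on the bright one. Rps25 showed 1203, 661 and 559 on its own probe set and 11955, 8514 and 7223 on the shared one. Rps27, a zinc finger protein, had 219, 161 and 63 on its own probe set, which made it the single member at least 2-fold lower with OSM. On the shared probe set Rps27 had 15298, 11470 and 8001, a step under 2-fold. Rps16 was under the floor on its own probe set (1, 2 and 1) and bright on its brightest shared one (19792, 19092 and 12321). The signal of these genes thus depended on the probe set, and for Rps6 and Rps27 the OSM ratio did too, whereas Rps25 had -0.24 on both.

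In the large subunit, Rplp0 and Rplp2, which with Rplp1 form the flexible stalk that recruits translation factors, were among the 5 brightest members. Rplp0 had signals of 28260, 17681 and 12976. Rplp2 had 28379, 16241 and 13853. Rplp1 had no probe set of its own, and its shared one read 23585, 16624 and 12788. All 3 stalk proteins had the same order as deposited, with OSM steps of -0.45, -0.23 and -0.38 on the log2 scale. Rpl4, which lines the exit tunnel for the growing chain, had 26911, 15804 and 12580. Rpl7 had 18311, 12242 and 10703 and an OSM step of -0.19. A dimmer Rpl7 probe set of its own ran the other way, with 2641, 7155 and 8673.

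Rpl22 and Rpl27 were the bright members that did not have their highest signal in fresh MuSC. Rpl27 had 9335, 11399 and 6875, and its log2 ratio for OSM of -0.73 was the lowest of the bright members. Its other probe sets read 3452, 5523 and 4126, and 4530, 5225 and 4540, so all 3 were highest in MuSC -OSM. Rpl22, an RNA-binding protein of the large subunit, had 10503, 13023 and 8619 on its brightest probe set. Its other probe sets read 7323, 5213 and 4875, and 3235, 838 and 974, and put fresh MuSC highest. The direction for Rpl22 on culture therefore depended on the probe set.

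Among the dim members of the large subunit, Rpl12, part of the stalk base, had 1238, 183 and 360 on its own probe set. Its log2 ratio of -2.76 in MuSC -OSM over fresh MuSC was the lowest of all members, and its 0.98 in MuSC +OSM over MuSC -OSM the highest. The brightest shared probe set of Rpl12 read 24197, 11923 and 10737, which puts the OSM array lowest. Rpl14 (370, 602 and 414) and Rpl37 (1324, 1973 and 1671) were highest in MuSC -OSM on their own probe sets, while their brightest shared ones read 23439, 15725 and 11389, and 23686, 14944 and 12730. Rpl27a (1498, 964 and 1010) and Rpl39 (342, 272 and 184) had shared probe sets at 22390, 14211 and 11596, and 23691, 17931 and 13188. These 5 shared probe sets, the brightest or only one of each gene, followed the order of the bright members, whatever the dim one did. The further shared ones of Rpl12, Rpl14 and Rpl37 kept it too, except a dim one of Rpl37 with 197, 198 and 128.

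Of the 5 paralogues, 3 were above the floor, and each of these had an order of the arrays of its own. Rps27l, a paralogue of Rps27 that p53 is known to induce, had signals of 1523 before culture, 4764 without OSM and 3229 with OSM. Its other probe sets read 1643, 3902 and 2568, and 1561, 4033 and 2854, and thus all 3 were lowest in fresh MuSC and highest in MuSC -OSM. The log2 ratio of MuSC -OSM over fresh MuSC was 1.65 as deposited, 2.20 after median-centring and 1.35 after quantile normalization. For OSM it was -0.56, -0.39 and -0.44 on those scales, which kept 1 direction.

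Rpl22l1, a paralogue whose level Rpl22 protein is known to hold down, had 9609, 4337 and 5091. Its log2 ratio of MuSC -OSM over fresh MuSC was -1.15 as deposited, -0.59 after median-centring and -1.14 after quantile normalization, and it rests on 1 probe set. The OSM ratio was 0.23, 0.40 and 0.37, and Rpl22l1 was among the 6 members with a higher signal in MuSC +OSM as deposited. Rpl7l1 had 816, 947 and 1136, and its 3 probe sets did not share a direction for culture. Rpl3l, the form of Rpl3 specific to heart and skeletal muscle, was under the floor on all arrays (2, 2 and 10), as was Rpl39l, known from testis (9, 30 and 3). The common forms of those genes were bright where a probe set names them with others, with Rpl3 at 24739, 14610 and 12070. Rpl10, likewise measured only with other gene names, had 24496, 16799 and 12396.

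How far probe sets of the same gene agreed in their ratio was read from members with several of them. These probe sets differ in target and brightness and share the same arrays, so their spread is not the error of a ratio between arrays. Of 24 members with at least 2 own probe sets, 20 had at least 2 above the floor on all arrays, 67 probe sets in all. The pooled SD of the log2 ratio between probe sets of a gene was 0.35 for MuSC +OSM over MuSC -OSM, 0.62 for MuSC -OSM over fresh MuSC and 0.49 for MuSC +OSM over fresh MuSC. All probe sets of a gene had the same sign in 11 of 20 members for OSM and in 15 of 20 for either comparison with fresh MuSC. Rps29, Rps28 and Rps27l had closely agreeing probe sets, and Rpl41, the smallest ribosomal protein, had the widest range.

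**Figure D4:**
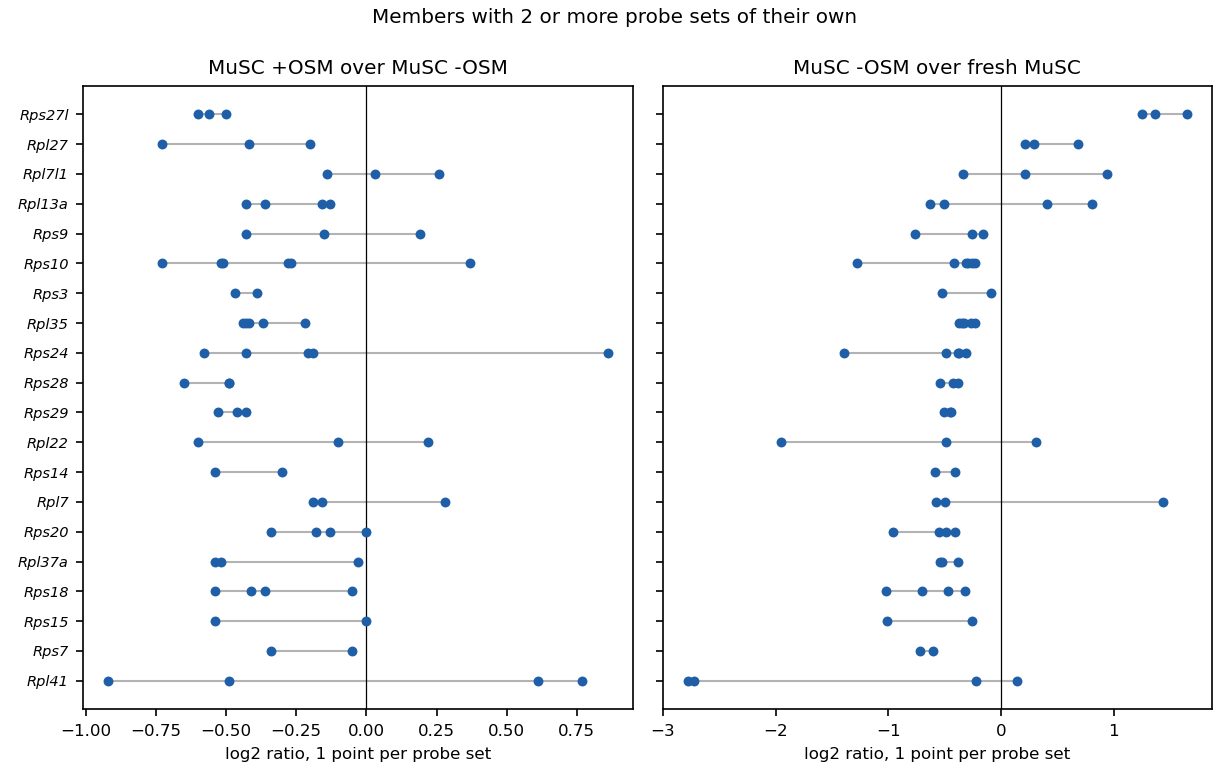
Log2 ratio of each own probe set of the 20 members that have at least 2 above the floor on all arrays, 1 point per probe set, joined by a line for each gene. In the deposited signals all probe sets lie on the same side of 0 in 11 of 20 genes at left and in 15 of 20 at right, with a pooled SD of 0.35 and 0.62.

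The probe sets that were set aside as naming several genes gave a second set of measurements of the family. Of these 110, 98 name a ribosomal protein gene beside symbols that are only gene model numbers or pseudogenes of the -ps kind. Among the 73 with a mean signal of at least 8000, the deposited median log2 ratio was -0.38 for MuSC +OSM over MuSC -OSM, with 72 of 73 lower. It was -0.63 for MuSC -OSM over fresh MuSC, with 72 of 73 lower, and -1.0 for MuSC +OSM over fresh MuSC, with 73 of 73 lower. These medians were close to the -0.38, -0.51 and -0.90 of the bright members. Ribosomal protein genes are known for many processed pseudogenes of near-identical sequence, and the same arrays gave both sets, so this is no independent sample.

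The genes that carry out the same process outside the name rule were listed from textbook roles. Fau, whose product is cleaved to a ubiquitin-like peptide and a small-subunit protein, had 10378, 8270 and 7406. Rps3a1, a small-subunit protein that the name rule left out, had 29726, 17401 and 13911. Both followed the order of the bright members as deposited, and Rack1 and Rpl36al had no probe set of their own.

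Elongation factors and other mRNAs with a TOP tract were measured for 17 of 18 genes. As deposited, 13 of 17 were lower after culture without OSM, 2 of them at least 2-fold, where 20.4% of all genes were at least 2-fold lower. The list's median for culture of -0.40 became 0.25 after median-centring and -0.25 after quantile normalization. Gas5, the host transcript of small nucleolar RNAs, had 10081, 3044 and 3656, and Eif4b, an initiation factor with a TOP tract, had 5742, 1910 and 2419. Both were the 2 with the highest OSM ratio of the list (0.26 and 0.34), and Hnrnpa1 and Naca the lowest, both at -0.53. Hnrnpa1, a splicing factor, had 4314, 2949 and 2040, and Naca, which binds nascent chains at the ribosome, had 12960, 11029 and 7621. For OSM the list's median was -0.05, with 12 of 17 lower, against 0.10 after median-centring and 0.07 after quantile normalization.

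Initiation factors (19 of 23 measured) had a median of 0.44 in MuSC -OSM over fresh MuSC, with 15 higher and 4 lower. Of these, 3 and 2 passed 2-fold, where 15.0% of all genes were at least 2-fold higher and 20.4% lower. The median was also above 0 after median-centring (1.0) and quantile normalization (0.30). For OSM the median was -0.27, with 14 of 19 lower, and -0.10 and -0.02 on the other scales. Eif6, which keeps the large subunit from joining early, had 647, 1759 and 1166, and Eif3a, the largest subunit of its complex, had 5462, 7869 and 5550, the lowest OSM ratios of the list. Eif5b, which joins the subunits, had 240, 294 and 409, and Eif4e, the cap-binding protein, had 978, 1467 and 1874, the highest.

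Ribosome biogenesis factors (43 of 44 with a probe set) divided evenly on culture, with 22 higher and 21 lower in MuSC -OSM and a median of 0.08 as deposited, 0.63 after median-centring and 0.02 after quantile normalization. Past 2-fold, 5 were higher and 1 was lower, against 15.0% and 20.4% of all genes. For OSM 30 of 42 were lower, with a median of -0.18 that was -0.01 and -0.21 on the other scales. None differed 2-fold, where 6.07% of all genes were at least 2-fold higher and 4.39% lower. Nob1, the nuclease that finishes small-subunit RNA, had 374, 347 and 228, and Brix1, a large-subunit assembly factor, had 1601, 1365 and 916. Nolc1 (905, 681 and 861) and Rrp15 (563, 437 and 525) had the highest OSM ratios, 0.34 and 0.26.

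Mitochondrial ribosomal proteins, which serve the separate ribosome of mitochondria, had the opposite direction to the cytosolic ones on culture in the deposited signals. Of 76 genes, 70 were higher after culture without OSM, 33 at least 2-fold, and none was at least 2-fold lower. Of all genes, 15.0% were at least 2-fold higher and 20.4% lower. Their median was 0.94 as deposited, 1.49 after median-centring and 0.98 after quantile normalization, and the bright cytosolic members' median minus this one was -1.45 as deposited and -1.04 after quantile normalization. Median-centring moves all genes of an array alike and cannot change such a difference. This difference kept its direction on those scales, and the 2 families differ in signal range, with a median of the mean signal of 607 in the mitochondrial list. For OSM, 60 of 76 were lower and 15 higher, with a median of -0.19, and the median was -0.02 after median-centring and -0.23 after quantile normalization. Mrpl1 (98, 332 and 170) and Mrpl11 (272, 954 and 520) had the lowest OSM ratios, -0.97 and -0.88. Mrpl41 (614, 850 and 1116) and Mrps18b (306, 438 and 571) had the highest, 0.39 and 0.38.

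Regulators of ribosomal protein mRNA, the mTOR pathway and its transcription factors, went both ways, with medians of -0.10 for OSM and 0.03 for culture over 20 genes as deposited, 0.07 and 0.58 after median-centring, and -0.09 and 0.01 after quantile normalization. For culture, 2 of the 20 were at least 2-fold higher and 3 lower, where 15.0% of all genes were at least 2-fold higher and 20.4% lower. Myc, a transcription factor that drives ribosome production, had 4550, 435 and 375, a signal 10.5-fold lower after culture without OSM. Sp1, a general transcription factor, had 2111, 763 and 1105, and Eif4ebp1, an inhibitor of Eif4e, had 1259, 3462 and 3278. Rptor, which brings substrates to mTOR, had 278, 634 and 284. Max, the partner of Myc proteins, had 210, 149 and 50. With OSM both were at least 2-fold lower than without it, where 4.39% of all genes were. Mycn, a Myc family transcription factor, had 396, 13 and 134, where the value in MuSC -OSM was under the floor. Eif4ebp2, which binds Eif4e, had 264, 187 and 274, the next highest OSM ratio of the list at 0.55.

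**Figure D5:**
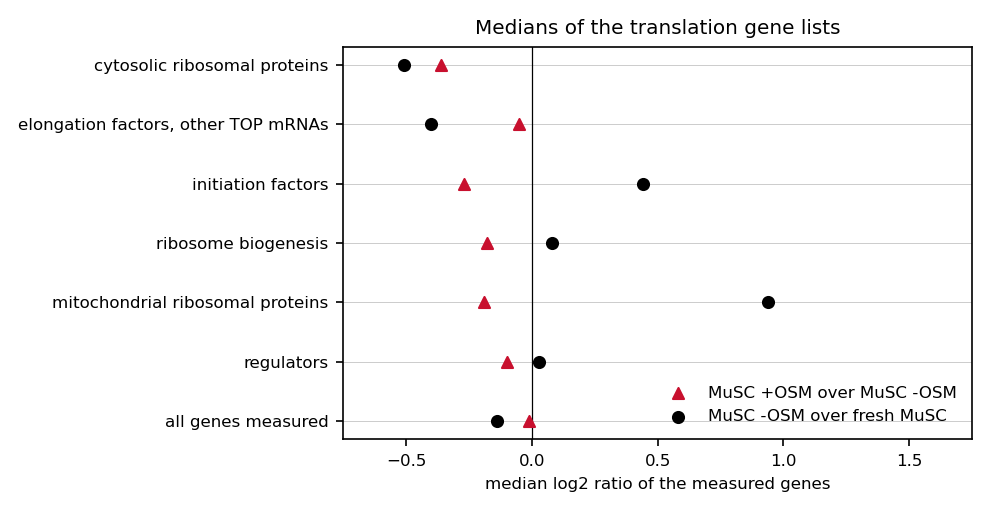
The median of the log2 ratios over each list's measured genes for MuSC +OSM over MuSC -OSM (triangles) and MuSC -OSM over fresh MuSC (circles), as deposited, with paralogues left out of the cytosolic list. Of the lists drawn, the cytosolic one has the lowest median for culture as deposited (0.05 for its bright members after median-centring) and the mitochondrial one the highest, 0.94, while all OSM medians lie below 0 as deposited. After quantile normalization, not drawn, the culture median is -0.25 for elongation factors and other TOP mRNAs and -0.12 for all measured members, so the lowest place depends on the scale.

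The arrays differed in other ways that moved with these results. The summed signals of the fibroblast, smooth muscle and endothelial markers given above were higher in fresh MuSC, and that of myofibre genes was higher after culture. Each of these sums came mostly from 1 gene, and their part in the comparisons with fresh MuSC was not tested. The 3′ to 5′ ratio of beta-actin was also higher in fresh MuSC, and its part was not tested. Between MuSC -OSM and MuSC +OSM the beta-actin ratio was 1.40 and 1.41, but that of Gapdh was 1.14 and 0.905. Fibroblast markers summed to 93 and 142 on those arrays and myofibre genes to 25113 and 16098, and their part in the OSM comparison was not tested.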

How the data were processed

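RNA of sorted mouse MuSC was amplified with 3′ IVT Express reagents and hybridized to 3 Affymetrix arrays, 1 for each condition. The authors ran MAS5, of a version that the sources used here do not give, on the array files and deposited the values as signal intensity on a linear scale with 45037 probe sets after 64 control probe sets were left out. The labels gave each array's condition, and 0 columns lacked a sample. The number of arrays limits the precision.

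From the deposited signals, ratios were computed with pandas 2.3.3 and numpy 2.4.6 under Python 3.11.15, and matplotlib 3.10.9 drew the figures. The platform annotation assigned 34945 probe sets to 1 gene, 932 to several and 9160 to none. Rps4l fits the name rule but is a transcribed pseudogene in RefSeq and was left out. Signals below the floor of 40 were set to it, and differences of at least 2-fold were counted. The counting was tested on simulated data with a known shift. Median-centring, quantile normalization, other floors, other choices of probe set and a threshold of 1.5-fold were the alternatives.

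Members, gene lists and the level of 8000 were chosen with earlier results of these data known. Genes were named by rule: all paralogues and their common forms, the 5 highest and the 5 lowest ratios of each comparison, members at least 2-fold apart where these were 10 or fewer, the 5 brightest and the 3 dimmest, the stalk proteins, Rpsa and Rps6, and of each other list the 2 highest and the 2 lowest OSM ratios. Lgals1, Acta1, Egr1, Myc, Sp1 and Eif4ebp1 were chosen after their values were seen, as were the genes with closely agreeing or wide-ranging probe sets.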

Additional observations from a re-analysis of the deposited data

Results flagged for a closer look

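Signal was present in probe sets that the gene values do not use. Of the 110 ribosomal protein probe sets that name several genes, 103 were above the floor on all 3 arrays, and 28 genes of the family are named by such probe sets alone. No array of this series lacks ribosomal protein mRNA, so there is no control level to set beside them.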

How the results depend on the processing

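Of 102 values that answer a comparison under an alternative, 63 stayed within the tolerance of the value as reported. After median-centring, the members' median was -0.18 for MuSC +OSM over MuSC -OSM, 0.06 for MuSC -OSM over fresh MuSC (a reversal) and -0.17 for MuSC +OSM over fresh MuSC. The members at least 2-fold higher numbered 1, 3 and 3 in these comparisons (8.43%, 28.3% and 34.0% of all genes), those at least 2-fold lower were 1 and 2 in the comparisons with fresh MuSC (12% and 8.29%), and those with a higher signal were 25 and 12. The medians of all genes in those comparisons with fresh MuSC were 0.37 and 0.58 on that scale. After quantile normalization, the medians were 0.06 (a reversal), -0.12 and 0, with 29, 18 and 21 members higher, and for MuSC +OSM over fresh MuSC 0 were at least 2-fold higher and 4 lower (17.1% and 14.1% of all genes). All genes then had medians of -0.02, 0.1 and 0.07. Without a floor, 1 member was at least 2-fold higher and 3 lower for OSM (13.1% and 17.2%), 3 were higher in MuSC -OSM over fresh MuSC (18.9%) and 2 in MuSC +OSM over fresh MuSC (16.2%). A floor of 183, the 75th percentile, left 0 members at least 2-fold lower for OSM (3.15%). The median over own probe sets left 0 at least 2-fold higher in MuSC +OSM over fresh MuSC. With probe sets of the plain suffix only (22 members or fewer), the medians were -0.24 for OSM and -0.75 for MuSC +OSM over fresh MuSC. On these probe sets 0 members were at least 2-fold higher in MuSC -OSM over fresh MuSC (14.4% of all genes) or in MuSC +OSM over fresh MuSC (12.9%). A higher signal in MuSC -OSM than in fresh MuSC was found for 3. Adding probe sets that name several genes (73 members) gave 0 at least 2-fold lower for OSM (4.36% of all genes). It gave 23 at least 2-fold lower (17.4% of all genes) with 2 higher in signal for MuSC +OSM over fresh MuSC. Among the 38 members with a mean signal of at least 1000, 0 were at least 2-fold lower for OSM (3.59% of all genes at that level). For MuSC +OSM over fresh MuSC, 2 of them were higher in signal. The share of all genes with a higher signal is not given for these alternatives. At 1.5-fold, 1 member was higher and 3 lower for OSM (14.6% and 13.1% of all genes), 2 higher and 17 lower in MuSC -OSM over fresh MuSC (24.3% and 31.8%), and 37 lower in MuSC +OSM over fresh MuSC (29.6%). The cause of these shifts was not tested. Of 527 values of named members, 472 stayed within 1.5-fold, 55 moved further, and 42 changed sign, 13 of them after median-centring and 17 after quantile normalization. For all genes, the share of 2-fold differences that were higher was 58.0%, 42.4% and 44.5% as deposited for OSM, MuSC -OSM over fresh MuSC and MuSC +OSM over fresh MuSC, against 72.0%, 70.2% and 80.4% after median-centring and 54.5%, 53.4% and 54.8% after quantile normalization. Without the floor those shares were 43.1%, 38.8% and 34.0%, and 2-fold differences covered 2378 genes higher and 3138 lower for OSM, against 684 and 495 with the floor. The list medians on the other scales, and the choice of bright genes on single arrays, were added after the data were seen. With bright genes chosen on the fresh MuSC array, the members' median minus that of the other bright genes changed sign to -0.37 for OSM, 1.02 for MuSC -OSM over fresh MuSC and 0.56 for MuSC +OSM over fresh MuSC. No paired analysis was possible because each condition has 1 array.

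The limits are those of 1 array per condition. Signal over background bounds the dim probe sets, since a value under 40 is not separated from the middle of all signals, and saturation near the top of the range was not tested.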
